A study of Mus musculus with 20 samples.

Results

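The comparison was made in white adipose tissue (WAT) of staggerer mice (sg/sg), homozygous for a natural deletion in Rora, against wild-type (WT) mice, all on a high-fat diet. It used the 10 WAT arrays of the 20 arrays in the series, 5 of sg/sg and 5 of WT mice, chosen by genotype and tissue in the sample labels. All mice were C57BL/6 males, 5 months old, and were on a 35% fat diet during 6 weeks. The design text gives 5 mice per genotype, and each array held RNA of 1 tissue sample labelled with Cy3. The deletion is present in every tissue and from conception, so the adipose tissue differed in genotype together with the rest of the body, and no mice on another diet are part of these groups. The fat depot is not stated.

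RORα, the product of Rora, is an orphan nuclear receptor that binds as a monomer to DNA sites made of an AT-rich stretch before a nuclear receptor half-site. It activates clock genes such as Arntl and competes at these sites with the repressors REV-ERBα and REV-ERBβ, encoded by Nr1d1 and Nr1d2. In obesity, white adipose tissue gathers macrophages around enlarged or dying adipocytes, and the adipocytes themselves secrete less adiponectin, take up less glucose and respond less to insulin. The comparison asks which of these features of adipose tissue on a high-fat diet differ without intact RORα.

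Rora, the mutated gene, is given first because it checks the labels. The array carried 3 Rora probes on chromosome 9 of mouse build mm7. The probe at chr9:69410920-69410979 stands for the gene in the tests, and the neighbouring probe at chr9:69411020-69411079 reads the same transcript. They are shown because they are what was measured of the mutated gene:
Rora probe at 69410920: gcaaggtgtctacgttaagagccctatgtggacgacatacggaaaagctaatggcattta
Rora probe at 69411020: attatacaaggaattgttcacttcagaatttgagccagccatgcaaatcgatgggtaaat

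Levels here and below are log2 of the processed intensity over the 75th percentile of the same array, in the order of replicates 1 to 5. Differences are log2 values of sg/sg minus WT mice, negative where sg/sg mice were lower, each with its standard error (SE) where one is given. The probe at 69410920 gave 0.10, -0.14, 0.21, -0.011 and 0.077 (WT) against -2.53, -2.38, -2.52, -3.18 and -2.75 (sg/sg). Every sg/sg array was below every WT array, and replicate 4 was the lowest of the sg/sg arrays. The means were 0.048 ± 0.13 (SD) in WT and -2.67 ± 0.31 in sg/sg mice (n = 5 each), a log2 difference of -2.72 (SE 0.15, adjusted p = 8.78e-05), or 6.59-fold. The other probes, at 69411020 and 69417414, differed by -2.73 (SE 0.15) and -2.75 (SE 0.13). All 3 probes still gave a signal in sg/sg mice, and the sources used here do not settle whether they lie inside the deleted part.

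The genotypes differed widely. Of 22347 genes tested, 5326 (23.8%) passed an adjusted p of 0.05 with limma, 3216 higher (14.4%) and 2110 lower (9.44%) in sg/sg mice. At least 2-fold changes were more often decreases, with 943 lower and 708 higher, and at least 4-fold changes more so, with 218 lower and 72 higher. The values of the genotypes did not overlap for 4869 genes (21.8%), with sg/sg mice higher for 13.3% and lower for 8.53% of all genes tested. The first principal component, with 39.0% of the variance, separated the genotypes. WT replicate 2 stood farthest out on it, and its median correlation with its own genotype was 0.968 against 0.990 to 0.992 for the other WT arrays. On the third component sg/sg replicate 4 stood apart. The 75th percentile of intensity used for scaling was 1936 to 2598 on WT and 1352 to 2053 on sg/sg arrays. The arrays came from 3 slides, each with both genotypes. Within them the median log2 difference of the macrophage markers described below was -0.92, -0.54 and -1.01, and that of the adipocyte identity genes 0.42, 0.31 and 0.55. With slide as a fixed block 4716 genes passed. Normexp background correction, a setting that changes how background is taken off, passed 1521 genes, 812 higher and 709 lower, and moved the median difference of all genes from 0.09 to 0.408. Counts with this setting are therefore given beside the gene lists below, and many of the genes named here lost their call under it. Those normexp counts are to be read against 812 higher and 709 lower of 22347 genes, not against 14.4% and 9.44%.

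**Figure D1:**
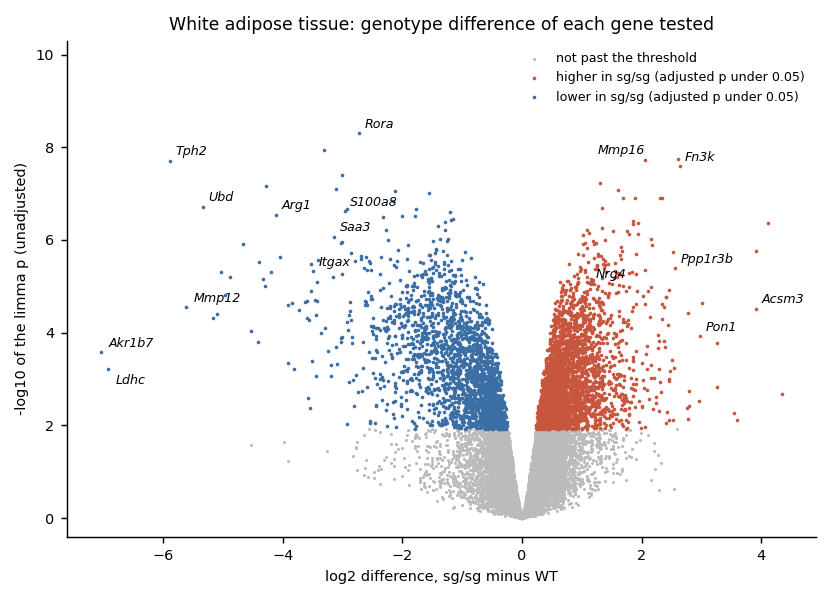
Each point is 1 of 22347 genes, with the log2 difference between sg/sg and WT mice on the x axis and -log10 of the unadjusted limma p on the y axis. Red genes (3216) were higher and blue genes (2110) lower at an adjusted p under 0.05, and the blue cloud reaches farther out than the red one, to -7.04 for Akr1b7.

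Macrophage genes were lower in sg/sg fat. Of 32 macrophage markers, 18 were lower and 0 higher (12 lower with normexp), with a median log2 difference of -0.75 against 0.09 over all genes. In whole tissue, fewer cells of a type and less RNA per cell cannot be told apart. Itgax, the integrin CD11c that marks inflammatory macrophages of obese fat and dendritic cells, was at 2.71, 3.71, 1.80, 1.80 and 1.91 (WT) against -1.49, -1.14, -0.92, -1.65 and -0.33 (sg/sg). The genotypes did not overlap, WT replicates 1 and 2 were the highest, and sg/sg replicate 5 was the nearest to WT. The log2 difference was -3.50 (SE 0.40, adjusted p = 0.000704), or 11.3-fold. A second Itgax probe gave -0.82 (SE 0.35) and did not pass. The general markers Adgre1, a surface receptor, and Cd68 fell by 1.32 (SE 0.27) and 1.88 (SE 0.33). Csf1r, the receptor for the growth factor CSF1, differed by -0.77 (SE 0.16), the integrin Itgam, or CD11b, by -1.30 (SE 0.22), the Fc receptor Fcgr1 by -1.25 (SE 0.27), and the complement gene C1qa by -0.59 (SE 0.18, adjusted p = 0.0423). The size differed from gene to gene. Cd163, a scavenger receptor of resident macrophages, differed by 0.23 (SE 0.16, adjusted p = 0.343), and Mrc1, the mannose receptor of the same cells, fell by less than Itgax, by -0.74 (SE 0.12). Arg1 and Chil3, enzymes and lectins of alternatively activated macrophages, were lower too, differing by -4.10 (SE 0.35) and -1.51 (SE 0.18). The galectin Lgals3 differed by -2.04 (SE 0.24).

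Lyz2, the macrophage lysozyme, depended on the probe. Its brightest probe was at 7.0, 6.76, 6.85, 6.81 and 6.97 (WT) against 6.72, 6.83, 7.05, 6.90 and 6.90 (sg/sg), with overlapping genotypes and a difference of 0.0022 (SE 0.092). A second probe gave -1.41 (SE 0.37, adjusted p = 0.0225), and the mean of its probes gave -0.70. The summed level of the 32 markers, in multiples of the 75th percentile, was 425 to 619 in WT and 274 to 369 in sg/sg mice, with no overlap.

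Genes of the lipid-laden macrophages marked by Trem2 were lower as well. Of 22 such genes 11 were lower and 1 higher (11 and 0 with normexp), with a median of -0.72. Trem2, a lipid-sensing receptor, was at 5.17, 5.99, 3.84, 4.11 and 4.0 (WT) against 1.53, 1.73, 1.18, 1.77 and 2.61 (sg/sg). Each sg/sg array was below each WT array, with WT replicates 1 and 2 high and sg/sg replicate 5 the closest to WT. The log2 difference was -2.86 (SE 0.43, adjusted p = 0.00182). Mmp12, a macrophage elastase, differed by -5.61 (SE 0.78, adjusted p = 0.00138), Gpnmb, a glycoprotein of lipid-loaded macrophages, by -3.91 (SE 0.54, adjusted p = 0.0013), and Spp1, or osteopontin, by -3.91 (SE 0.77, adjusted p = 0.00597). Atp6v0d2, a subunit of the proton pump of lysosomes, differed by -4.96 (SE 0.64), the fusion receptor Dcstamp by -2.69 (SE 0.28) and the lysosomal lipase Lipa by -1.83 (SE 0.28). Cd9, a tetraspanin of the same cells, differed by -0.38 (SE 0.25, adjusted p = 0.298). The list also holds Lpl, Fabp4, Cd36 and Plin2, which adipocytes express at high levels and which did not pass, and its summed level (1023 to 1362 in WT and 978 to 1334 in sg/sg mice) overlapped between genotypes.

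**Figure D2:**
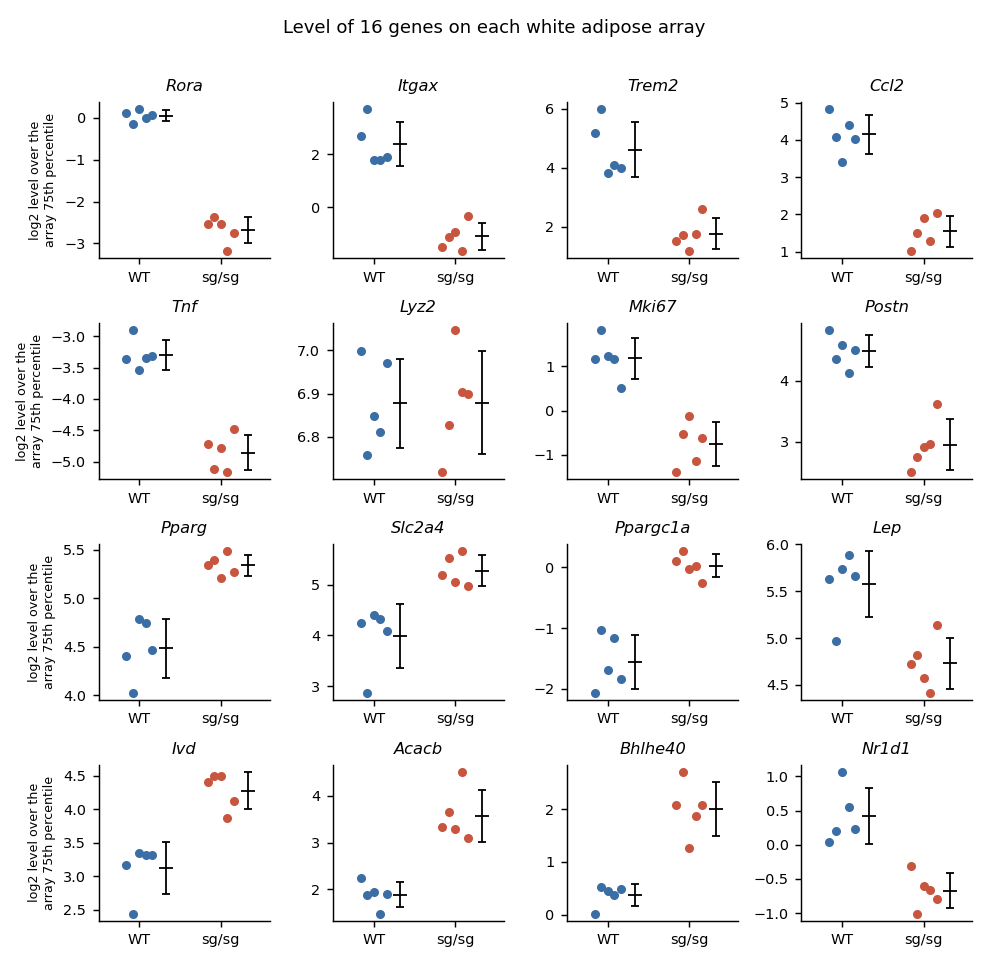
Points are the 5 WT (blue) and 5 sg/sg (red) arrays for 16 genes, on a log2 scale relative to the 75th percentile of each array, and bars give the mean ± SD. The genotypes are apart for Itgax, Trem2, Ccl2, Tnf, Mki67, Postn, Pparg, Slc2a4, Ppargc1a, Ivd, Acacb, Bhlhe40, Nr1d1 and Rora, while they overlap for Lyz2 and Lep.

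Chemokines that draw monocytes were lower. Of 27 measured chemokine genes 11 were lower and 1 higher (7 and 1 with normexp), with a median of -0.69. Ccl2, or MCP-1, the main attractant of monocytes into fat, was at 4.82, 4.07, 3.41, 4.40 and 4.03 (WT) against 1.02, 1.50, 1.89, 1.28 and 2.03 (sg/sg). The groups were apart by more than 1 log2 unit, with WT replicate 3 the lowest of WT and sg/sg replicate 5 the highest of its group. The difference was -2.60 (SE 0.27, adjusted p = 0.000584), or 6.08-fold. Its neighbours Ccl7 and Ccl8, which share receptors with it, differed by -2.60 (SE 0.29) and -2.65 (SE 0.30), Ccl9 differed by -1.94 (SE 0.24), and Ccl3, or MIP-1α, by -1.94 (SE 0.37). Of 17 measured chemokine receptors 6 were lower and 2 higher (2 and 0 with normexp), among them Ccr2, the receptor for Ccl2, at -1.30 (SE 0.28).

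Cytokine and innate sensing genes were lower as well. Of 34 cytokines and their receptors 14 were lower and 2 higher (5 and 0 with normexp), with a median of -0.33. Tnf, the inflammatory cytokine tied to insulin resistance of fat, was at -3.36, -2.90, -3.55, -3.35 and -3.32 (WT) against -4.72, -5.12, -4.78, -5.16 and -4.48 (sg/sg). The genotypes did not overlap, though all levels were far below the 75th percentile. The difference was -1.56 (SE 0.16, adjusted p = 0.000563), and -0.033 with normexp, where it did not pass. Il1b differed by -0.94 (SE 0.25), its decoy receptor Il1r2 by -3.11 (SE 0.23), and Il1rn, the secreted antagonist of the interleukin 1 receptor, was among the 15 largest decreases at -4.40 (SE 0.48, adjusted p = 0.000608). Csf2ra, a receptor chain for GM-CSF, differed by -1.30 (SE 0.14). With normexp Il1r2 differed by -0.50 and Il1b by 0.14, with the sign turned. Of 29 genes of Toll-like receptors, the inflammasome and NF-kB, 15 were lower and 1 higher (3 and 0 with normexp). Casp1, the protease that matures interleukin 1β, and its adaptor Pycard differed by -1.03 (SE 0.18) and -1.18 (SE 0.21), and the receptors Tlr1, Tlr2, Tlr6 and Tlr8 by -1.72, -0.59, -1.56 and -2.17. Of 14 myeloid C-type lectins 7 were lower and none higher (4 lower with normexp), with Clec7a, or Dectin-1, at -2.06 (SE 0.30), Clec4d at -1.57 (SE 0.38), and the close relatives Clec4a2 and Clec4a3 at -1.65 and -1.46.

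The antigen presentation and lysosomal genes that passed were all lower. Of 15 genes of MHC class II and costimulation 10 were lower and none higher (6 lower with normexp), at a median of -0.81. H2-DMb1, which loads peptides on class II molecules, was at 4.24, 4.22, 4.05, 3.99 and 3.91 (WT) against 2.20, 2.65, 3.01, 2.40 and 2.93 (sg/sg). No sg/sg array reached a WT array, and WT arrays lay close together. The difference was -1.44 (SE 0.16, adjusted p = 0.000689), and the master activator Ciita differed by -1.37 (SE 0.18, adjusted p = 0.00113). H2-DMb2 differed by -1.69 (SE 0.25), the protease Ctss by -1.64 (SE 0.26), H2-Ab1 by -0.79 (SE 0.21) and H2-Aa, which did not pass, by -1.09 (SE 0.36, adjusted p = 0.0514). Genes of oxidative stress and glutathione went both ways, with 7 of 30 lower and 8 higher (7 and 2 with normexp). Their median was 0.058 and their differences reached from -1.66 to 1.44. The lower ones included the phagocyte oxidase subunits Ncf1 and Cybb at -1.66 (SE 0.18) and -1.21 (SE 0.20), and the heme oxygenase Hmox1 at -1.50 (SE 0.25). Of 29 lysosome and cathepsin genes 16 were lower and none higher (12 lower with normexp), with the cholesterol carrier Npc2 at -0.55 (SE 0.083) and the pump subunit Atp6v1b2 at -1.17 (SE 0.18). Ctsb and Ctsd, general lysosomal proteases, differed by -0.071 and -0.35 on their brightest probes and did not pass, but a second probe of each was lower, at -1.47 (SE 0.28) and -0.91 (SE 0.15).

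Complement and acute phase genes showed large decreases in a few members. Of 18 measured complement genes 8 were lower and 2 higher (2 and 0 with normexp, and 4 lower without WT replicate 1 or sg/sg replicate 1, 5 without WT replicate 5 or sg/sg replicate 4). Cfb, a factor of the alternative pathway, differed by -0.78 (SE 0.12), C4b by -1.18 (SE 0.25) and the receptor C3ar1 by -1.74 (SE 0.33), while C2 was higher, differing by 0.88 (SE 0.25, adjusted p = 0.0306). Of 14 serum amyloid and acute phase genes 6 were lower and 1 higher (4 and 1 with normexp). Saa3, the serum amyloid made in fat, was at 2.16, 1.84, 3.49, 2.72 and 2.66 (WT) against -0.90, -0.99, -0.22, -0.25 and -0.46 (sg/sg). WT replicate 3 was the highest array and WT replicate 2 the lowest of WT, and no value overlapped. Its difference was -3.14 (SE 0.30, adjusted p = 0.000407), or 8.81-fold. Saa1 differed by -2.35 (SE 0.25) and the pentraxin Ptx3 by -2.49 (SE 0.39). Of 26 interferon genes 4 were lower (15.4%, against 9.44% of all genes) and none higher, at a median of 0.11. The number lower was 2 with normexp and 2 without WT replicate 1 or sg/sg replicate 1. Ifit1 and Ifit3 differed by 0.11 and 0.15 and did not pass, while Oas1a and Oasl1 differed by -0.93 (SE 0.17) and -0.88 (SE 0.24). Ubd, a ubiquitin-like protein induced by interferon γ and tumour necrosis factor, had the largest difference of the list at -5.34 (SE 0.43, adjusted p = 0.000222). Among 19 immediate early genes 5 were lower and 3 higher (4 and 1 with normexp), with Fos, Junb, Egr2 and Atf3 at -2.06, -1.04, -2.26 and -2.44.

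Markers of other blood cells gave mixed results. Of 11 measured neutrophil markers 4 were lower and none higher (1 lower with normexp) at a median of 0.10. S100a8, a calcium-binding alarmin, differed by -2.96 (SE 0.24, adjusted p = 0.000227) and the resistin-like Retnlg by -3.19 (SE 0.68, adjusted p = 0.0088), while S100a9, the partner of S100a8, differed by 0.57 (SE 0.23, adjusted p = 0.101) and Cxcr2 by 0.38 (SE 0.46, adjusted p = 0.593). Csf3r and Ltf differed by -0.89 and -2.11, and by 0.016 and 0.60 with normexp, where the sign turned. Of 11 dendritic cell markers 5 were lower and 1 higher (2 and 0 with normexp), with the migration receptor Ccr7 at -1.35 (SE 0.19), Clec9a at -1.26 (SE 0.20), Irf8 at -1.22 (SE 0.22) and Flt3 at -0.98 (SE 0.18), and with Xcr1 and Zbtb46 at 0.11 and 0.13, not past the threshold. With normexp Clec9a and Flt3 differed by 0.38 and 0.57, again with the sign turned. A second Xcr1 probe was lower and passed, at -0.83 (SE 0.18, adjusted p = 0.0109), and the mean of the Xcr1 probes was at -0.36. The summed level of the dendritic markers was 11.8 to 13.1 in WT and 4.79 to 8.01 in sg/sg mice, without overlap.

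Of 13 mast cell and eosinophil markers 2 were lower (15.4%, against 9.44% of all genes) and none higher, at a median of 0.19. Both lower genes mark eosinophils. Prg2 and Il5ra, other eosinophil genes of the list, did not pass, and Epx was not above background. With normexp none of the 13 passed. Siglecf, a lectin of mouse eosinophils, was at -2.62, -4.14, -2.30, -3.34 and -1.03 (WT) against -6.81, -5.80, -5.32, -6.29 and -5.72 (sg/sg). All sg/sg arrays were below all WT arrays, with WT replicate 2 lowest of WT and WT replicate 5 highest. The difference was -3.30 (SE 0.52, adjusted p = 0.00219), and Ccr3, the eotaxin receptor of eosinophils, differed by -2.87 (SE 0.39, adjusted p = 0.00124). The mast cell protease Cpa3 and the stem cell factor receptor Kit differed by 0.19 (SE 0.51) and -0.30 (SE 0.20) and did not pass.

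T cell markers did not move together. Of 27 measured T and NK cell markers 2 were lower and 1 higher (1 and 0 with normexp, and 4 lower without WT replicate 2), with Cd3e, Cd3d, Cd4 and Cd8a at 0.12, 0.16, 0.30 and 0.027, none past the threshold. The 11.1% of the list past the threshold was below the 23.8% of all genes. The interleukin 7 receptor Il7r differed by -3.52 (SE 0.45, adjusted p = 0.00102) and Foxp3, the factor of regulatory T cells, by -1.94 (SE 0.47, adjusted p = 0.0147), measured above background on 2 of 5 arrays of sg/sg mice. With normexp Foxp3 differed by 0.92. Of 15 B and plasma cell markers 3 were lower and 1 higher, and none passed with normexp. The 26.7% past the threshold was near the 23.8% of all genes. Cd22 and Cd37, lymphocyte surface proteins, differed by -1.49 and -0.98, Pou2af1, a B cell coactivator, by 0.80, and the B cell receptor gene Cd79a by 0.29 (SE 0.18), not past the threshold. The summed levels of T and B markers overlapped between genotypes, at 18.4 to 26.3 in WT and 18.5 to 23.9 in sg/sg mice for the former.

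**Figure D3:**
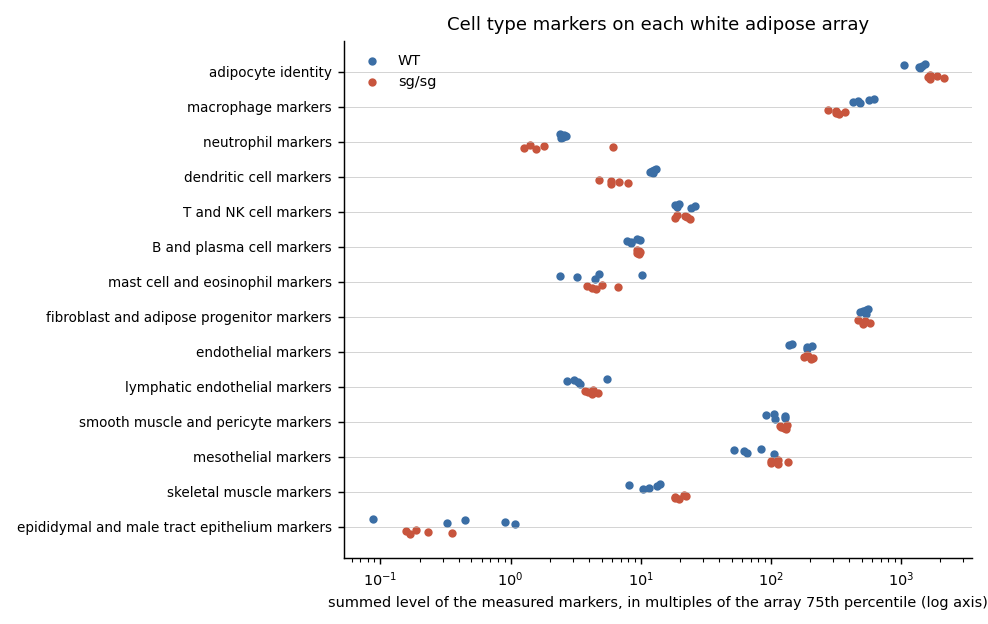
Each point is the summed level of the measured markers of a cell type on 1 array, in multiples of the 75th percentile of that array on a log axis, for 5 WT (blue) and 5 sg/sg (red) arrays. Macrophage and dendritic sums are lower in all sg/sg arrays and adipocyte sums higher in all of them, while T cell, fibroblast and endothelial sums overlap.

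Genes of dividing cells were lower almost throughout. Of 44 genes of mitosis and the spindle 40 were lower and 1 higher at a median of -1.65, and of 35 DNA replication genes 29 were lower and none higher at a median of -0.79. With normexp these counts were 16 and 10. Mki67, the marker of cycling cells, was at 1.15, 1.81, 1.22, 1.16 and 0.51 (WT) against -1.38, -0.54, -0.13, -1.13 and -0.62 (sg/sg). The genotypes did not overlap, WT replicate 5 was the lowest of WT and sg/sg replicate 3 the highest of sg/sg. The difference was -1.93 (SE 0.28, adjusted p = 0.00156), or 3.81-fold. Top2a, the topoisomerase of dividing cells, differed by -2.12 (SE 0.29), the kinetochore protein Spc25 by -2.87 (SE 0.29), the kinase Melk by -2.13 (SE 0.23), Racgap1 of cytokinesis by -1.22 (SE 0.14) and Ube2c of the anaphase complex by -1.62 (SE 0.18). Among replication genes, the helicase subunits Mcm2, Mcm3 and Mcm5 differed by -1.20, -1.05 and -1.60, the initiation factor Mcm10 by -1.80 and the S phase activator E2f1 by -0.79 (SE 0.093). Pttg1, or securin, named after its value was seen, was the only mitotic gene of the list to rise, at 0.49 (SE 0.11, adjusted p = 0.0123). Gtse1, a protein of the G2 phase, was among the 10 genes with the smallest p when slide was a block, at -2.92 (SE 0.24, adjusted p = 0.000222).

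Collagen and matrix genes were also lower. Of 19 collagen genes 13 were lower and none higher (9 lower with normexp), at a median of -0.68. Col1a1, the main fibrillar collagen, differed by -0.84 (SE 0.16, adjusted p = 0.0053) and Col3a1 by -0.45 (SE 0.13, adjusted p = 0.0274). Other Col3a1 probes gave -0.97 (SE 0.18), which passed, and 0.078 (SE 0.31), which did not. Col5a2, Col16a1 and Col12a1, which bind or limit collagen fibrils, differed by -1.20 (SE 0.15), -1.31 (SE 0.16) and -1.40 (SE 0.20), and the basement membrane chain Col4a1 by -0.75 (SE 0.11). With normexp Col12a1 differed by 0.36. Of 32 measured matrix proteins and crosslinkers 10 were lower and 2 higher (4 and 0 with normexp). Postn, or periostin, a matrix protein of fibrosis, was at 4.83, 4.36, 4.59, 4.12 and 4.50 (WT) against 2.51, 2.75, 2.92, 2.96 and 3.62 (sg/sg). No sg/sg array reached WT, and sg/sg replicate 5 was the nearest. The difference was -1.53 (SE 0.21, adjusted p = 0.00125). Fibronectin, Fn1, differed by -1.38 (SE 0.36), tenascin C, Tnc, by -0.98 (SE 0.12) and elastin, Eln, by -0.27 (SE 0.15, adjusted p = 0.226). Other Tnc probes gave -0.94 (SE 0.20), which passed, and -0.096 (SE 0.46), which did not. The fibrillin Fbn2, above background on 3 of 5 arrays of sg/sg mice, differed by -2.42 (SE 0.44), and by 0.47 with normexp. Ccn2, a growth factor of connective tissue, was higher, differing by 0.61 (SE 0.12, adjusted p = 0.00569).

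Some proteases and their inhibitors were lower too. Of 21 metalloproteinases and inhibitors 6 were lower and 1 higher (4 and 1 with normexp). Adam8, a protease of leukocytes and macrophages, differed by -3.41 (SE 0.36, adjusted p = 0.000608), the inhibitor Timp1 by -2.26 (SE 0.35), stromelysin, Mmp3, by -2.29 (SE 0.45) and Adam19 by -0.75 (SE 0.12), while Mmp2 differed by -0.49 (SE 0.29, adjusted p = 0.249). The gene of the list that rose was the matrix protease Adamts1, named after its value was seen, at 1.19 (SE 0.25, adjusted p = 0.00823), with a second probe at 0.70 (SE 0.31) that did not pass. Outside the list, the membrane-bound metalloproteinase Mmp16 was among the 10 genes with the smallest p when slide was a block, and it rose by 2.05 (SE 0.13, adjusted p = 8.78e-05). Mrc2, an endocytic receptor that clears collagen, differed by -2.13 (SE 0.16, adjusted p = 0.000161). Of 20 general fibroblast markers 5 were lower and 1 higher (2 and 0 with normexp), with Lum and Fbn1 at -0.91 (SE 0.20) and -1.05 (SE 0.23) but the progenitor receptor Pdgfra at -0.011 (SE 0.18) and Dpp4 at 0.51 (SE 0.23), neither past the threshold. The summed level of fibroblast markers was 482 to 562 in WT and 465 to 574 in sg/sg mice.

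Signalling genes of the matrix were mixed. Of 24 genes of TGF-beta, activin and BMP signalling 5 were lower and 3 higher (3 and 2 with normexp). In this list 33.3% passed the threshold, against 23.8% of all genes. Tgfb1 differed by -0.84 (SE 0.15), Bmp1, a procollagen protease, by -0.82 (SE 0.12), the stress cytokine Gdf15 by -2.24 (SE 0.33), and Inhba, an activin chain, by 0.18 (SE 0.34, adjusted p = 0.746). Grem1, named after its value was seen, exceeded background clearly on just 1 of the 5 arrays of WT mice and differed by 3.60 (SE 1.09, adjusted p = 0.0374), with WT replicate 2 above every sg/sg array. Mstn, or myostatin, an inhibitor of muscle growth, differed by -5.03 (SE 0.57, adjusted p = 0.00071), and was clearly measured on 1 of 5 arrays of sg/sg mice, and it differed by -0.21 with normexp. Of 22 Wnt genes 6 were higher and 3 lower (4 and 2 with normexp, 3 and 1 without WT replicate 1 or sg/sg replicate 3, and 1 lower without WT replicate 4). The Wnt target Axin2 differed by 1.65 (SE 0.31, adjusted p = 0.00458), the nuclear effector Tcf7l2 by 0.67 (SE 0.12), Wnt5b by 0.56 (SE 0.086), with a second probe at 0.067 (SE 0.34), Wnt2 by -1.06 (SE 0.22) and Wnt10b, which restrains adipocyte formation, by 0.56 (SE 0.33, adjusted p = 0.257). Sfrp5, a secreted Wnt inhibitor of adipocytes that was named after its value was seen, differed by -2.80 (SE 0.75, adjusted p = 0.0234).

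Of the adipocyte genes that passed, all but leptin were higher in sg/sg fat. Of 20 adipocyte identity genes 9 were higher and 1 lower (2 and 0 with normexp), at a median of 0.38, and 14.4% of all genes were higher. Relative to all genes the median with normexp was negative, at -0.21. Their summed level was 1060.0 to 1543 in WT and 1613 to 2138 in sg/sg mice, with WT replicate 2 the lowest array and no overlap. The 12 defining adipocyte genes of the list were all well above background. Pparg, the master regulator of adipocytes, was at 4.40, 4.03, 4.78, 4.74 and 4.46 (WT) against 5.35, 5.40, 5.21, 5.49 and 5.27 (sg/sg). The sg/sg arrays lay close together above WT, and WT replicate 2 was the lowest. The difference was 0.86 (SE 0.15, adjusted p = 0.00302), or 1.82-fold. Its partner Cebpa differed by 0.60 (SE 0.13, adjusted p = 0.00912), the droplet coat protein Plin1 by 0.66 (SE 0.14, adjusted p = 0.00774), the lipase Pnpla2 by 0.49 (SE 0.093, adjusted p = 0.00523), Adig, or adipogenin, by 1.16 (SE 0.14, adjusted p = 0.000867) and the adipocyte galectin Lgals12 by 1.27 (SE 0.26, adjusted p = 0.00669). Adiponectin, Adipoq, an insulin-sensitising hormone, differed by 0.43 (SE 0.13, adjusted p = 0.037), and adipsin, Cfd, by 0.85 (SE 0.25, adjusted p = 0.0355). Both of these calls were lost with median scaling, with quantile normalization and without any one of several arrays, and the normexp differences were 0.25 and 0.67. Lpl, Fabp4, Cidec, Lipe and resistin, Retn, were between 0.24 and 0.99 and did not pass.

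Leptin, Lep, the hormone of fat mass, was at 5.63, 4.97, 5.73, 5.88 and 5.66 (WT) against 4.72, 4.82, 4.57, 4.42 and 5.14 (sg/sg). The sg/sg arrays were lower apart from an overlap with WT replicate 2, which lay below sg/sg replicate 5. The difference was -0.84 (SE 0.19, adjusted p = 0.0109). Among 15 measured adipokines 7 were lower and 3 higher (4 and 1 with normexp, and 1 higher without WT replicates 3 or 4 or any of sg/sg replicates 1 to 3). Besides Tnf and Ccl2, which fell, the neuregulin Nrg4, released by brown and white adipocytes, was higher, differing by 1.15 (SE 0.14, adjusted p = 0.000892), whereas the retinol carrier Rbp4 and Nampt, or visfatin, differed by 0.52 (SE 0.21) and 0.44 (SE 0.16) and did not pass.

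Fat synthesis and storage genes were higher in part. Of 20 genes of fatty acid synthesis, elongation and desaturation 6 were higher and none lower (3 higher with normexp, and 8 higher with 6 lower without sg/sg replicate 4), at a median of 0.58. Acacb, an acetyl-CoA carboxylase whose product restrains fatty acid entry into mitochondria, was at 2.23, 1.88, 1.94, 1.48 and 1.91 (WT) against 3.33, 3.65, 3.29, 4.51 and 3.09 (sg/sg). The genotypes did not overlap and sg/sg replicate 4 was the highest by about 1 log2 unit. The difference was 1.69 (SE 0.26, adjusted p = 0.00192). Mlxipl, or ChREBP, the carbohydrate-responsive activator of lipogenesis, differed by 1.17 (SE 0.22, adjusted p = 0.00474) and Srebf1, its insulin-responsive counterpart, by 0.90 (SE 0.15, adjusted p = 0.00316). The desaturase Fads1 differed by 0.88 (SE 0.16) and Acaca by 1.58 (SE 0.45), where sg/sg replicate 4, at 4.12, was far above the other arrays. Fatty acid synthase, Fasn, differed by 0.53 (SE 0.18, adjusted p = 0.0619). In triglyceride and phospholipid assembly 6 of 18 genes were higher and 1 lower (2 and 0 with normexp), with the acyltransferases Mogat1, Gpat3, Gpam and Agpat3 at 1.51, 0.86, 0.75 and 0.62, the acyl-CoA synthetase Acsl5 at -0.45 (SE 0.083) and Agpat2 at 0.19 (SE 0.14, adjusted p = 0.351). Relative to all genes the normexp medians of triglyceride assembly and of lipid droplet and lipolysis genes were negative, at -0.27 and -0.13.

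Among 19 genes of the lipid droplet and lipolysis 7 were higher and none lower (4 higher and 1 lower with normexp). G0s2, the inhibitor of adipose triglyceride lipase, differed by 1.26 (SE 0.14, adjusted p = 0.000689), the lipase relative Pnpla3 by 1.60 (SE 0.28, adjusted p = 0.00326), the β1-adrenergic receptor Adrb1 by 1.68 (SE 0.25, adjusted p = 0.00177) and Cidea, a droplet protein also typical of brown fat, by 1.31 (SE 0.21, adjusted p = 0.00245). Plin4 differed by 0.40 (SE 0.13, adjusted p = 0.0513), and Plin2, which coats droplets in many cells including macrophages, by -0.76 (SE 0.29, adjusted p = 0.086), with sg/sg replicate 4 inside the WT range. Of 14 uptake genes 1 was higher and 2 lower (1 and 1 with normexp, and 1 lower without sg/sg replicate 3). The 21.4% past the threshold was near the 23.8% of all genes. The VLDL receptor Vldlr differed by -0.60 (SE 0.15), the lipase inhibitor Angptl4 by -0.57 (SE 0.15), and the fatty acid transporter Cd36 by 0.13 (SE 0.092, adjusted p = 0.342).

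Mitochondrial genes were slightly but broadly higher, though the number past the threshold was fragile. In the tricarboxylic acid cycle 8 of 22 genes were higher and none lower, with 21 of 22 positive, and in the respiratory chain and ATP synthase 17 of 51 were higher and none lower, with 48 positive. Their medians were 0.35 and 0.36, against 0.09 over all genes. Signs over all genes thus leaned positive too, and their share was not counted. When each array was left out in turn, 4 to 10 and 5 to 20 were higher. The respiratory count was 5 to 9 without any one WT array or any of sg/sg replicates 1 to 3, and the cycle count 4 without WT replicates 2, 4 or 5 or sg/sg replicates 1 or 2 and 5 without WT replicate 1 or sg/sg replicate 3. Median scaling left 4 and 3, and normexp 1 and 3. Relative to all genes the normexp medians of both lists were negative, at -0.21 and -0.22. The succinyl-CoA ligase subunit Suclg2 differed by 0.71 (SE 0.12), the succinate dehydrogenase subunit Sdha by 0.62 (SE 0.12), the pyruvate dehydrogenase subunit Pdhb by 0.63 (SE 0.15) and citrate synthase, Cs, by 0.41 (SE 0.14, adjusted p = 0.0611). Complex I subunits Ndufa9, Ndufv1, Ndufs7 and Ndufb8 were between 0.49 and 0.59, and the complex III subunit Uqcrfs1 differed by 0.46 (SE 0.12). In fatty acid oxidation 8 of 26 genes were higher and 1 lower (1 and 1 with normexp, where the median relative to all genes was -0.38). Hadh, Acot2, Eci1 and Cpt2 differed by 0.63, 0.70, 0.57 and 0.39, the lower gene was Cpt1a, the carnitine transferase that admits fatty acids to mitochondria, at -0.89 (SE 0.16, adjusted p = 0.00354), and its muscle form Cpt1b differed by -0.053 (SE 0.25, adjusted p = 0.907). Acot4, a peroxisomal thioesterase, was among the 10 smallest p with slide as a block, at 1.34 (SE 0.11, adjusted p = 0.000222).

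Coactivators of mitochondrial genes were higher. Ppargc1a, or PGC-1α, was at -2.06, -1.03, -1.68, -1.16 and -1.83 (WT) against 0.11, 0.27, -0.023, 0.025 and -0.25 (sg/sg). The genotypes were apart, with WT replicates 2 and 4 the highest of WT. The difference was 1.58 (SE 0.20, adjusted p = 0.00105), or 2.99-fold. Its relative Ppargc1b differed by 1.25 (SE 0.16, adjusted p = 0.000989) and Ppara, the receptor that drives fatty acid oxidation, by 0.73 (SE 0.13, adjusted p = 0.00371). Of 20 PPAR and C/EBP factors and coactivators 10 were higher and none lower (4 higher with normexp, where the median relative to all genes was -0.052). Thermogenic genes went both ways, with 4 of 19 higher and 3 lower (3 and 0 with normexp, and 5 lower without sg/sg replicate 4). Ucp1, the uncoupling protein of brown and beige fat, was at -4.74, -2.02, -6.12, -4.83 and -3.74 (WT) against -2.74, -3.32, -4.69, -3.09 and -3.76 (sg/sg). The genotypes overlapped, with WT replicate 2 the highest of all arrays, and the difference of 0.77 (SE 0.68, adjusted p = 0.457) did not pass. Prdm16, the beige fat regulator, named after its value was seen, differed by -0.25 (SE 0.17, adjusted p = 0.313). The beige markers Otop1 and Tnfrsf9 differed by -4.19 (SE 0.48, adjusted p = 0.00071) and -1.13 (SE 0.21, adjusted p = 0.00479), with the latter at 0.79 under normexp, and Ucp2, which is also expressed in macrophages, differed by -1.43 (SE 0.28, adjusted p = 0.00609).

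Genes of branched-chain amino acid breakdown, a mitochondrial pathway active in healthy fat, were higher in nearly the whole list. Of 18 measured genes 15 were higher and none lower, all 18 were positive, and the median was 0.70, against 0.09 over all genes. The number higher was 9 to 17 when each array was left out in turn, with the lowest without WT replicate 1, 9 with median scaling and 3 with normexp. Ivd, the isovaleryl-CoA dehydrogenase of leucine breakdown, was at 3.17, 2.44, 3.34, 3.31 and 3.32 (WT) against 4.41, 4.50, 4.49, 3.86 and 4.12 (sg/sg). WT replicate 2 was low, and the lowest sg/sg array, replicate 4, was still above the highest WT array. The difference was 1.16 (SE 0.20, adjusted p = 0.00334). The first steps of the pathway, the transaminase Bcat2 and the dehydrogenase subunit Bckdha, differed by 0.86 (SE 0.20) and 0.74 (SE 0.14), and the later enzymes Pccb and Aldh6a1 by 0.96 (SE 0.15) and 1.05 (SE 0.23).

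Genes of insulin signalling and glucose uptake were more often higher than lower, with 9 and 3 of 29 (6 and 2 with normexp, and 5 higher with median scaling or without sg/sg replicate 1). Relative to all genes the normexp median was negative, at -0.25. Slc2a4, or GLUT4, the insulin-regulated glucose transporter, was at 4.24, 2.87, 4.41, 4.33 and 4.08 (WT) against 5.18, 5.52, 5.04, 5.66 and 4.96 (sg/sg). WT replicate 2 was far below the rest of WT, and no sg/sg array fell into the WT range. The difference was 1.29 (SE 0.29, adjusted p = 0.0108), or 2.44-fold. The hexokinase Hk2, which traps glucose in the cell, differed by 1.29 (SE 0.18, adjusted p = 0.0013), the insulin receptor substrate Irs1 by 1.11 (SE 0.19, adjusted p = 0.00312), the kinase subunit Pik3r1 by 1.02 (SE 0.18, adjusted p = 0.0034) and the receptor Insr by 0.43 (SE 0.14, adjusted p = 0.0476), on a dim probe that did not pass in most other settings. Tbc1d1, a brake on transporter movement, fell by 0.79 (SE 0.12). Ppp1r3b, a targeting subunit that brings a phosphatase to glycogen, was among the 15 largest increases at 2.57 (SE 0.29, adjusted p = 0.000685). Fn3k, which repairs glycated proteins, was another, at -3.05, -2.87, -2.69, -2.71 and -2.41 (WT) against 0.11, -0.033, 0.19, -0.20 and -0.62 (sg/sg), with tight groups far apart and a difference of 2.63 (SE 0.17, adjusted p = 9.49e-05).

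**Figure D4:**
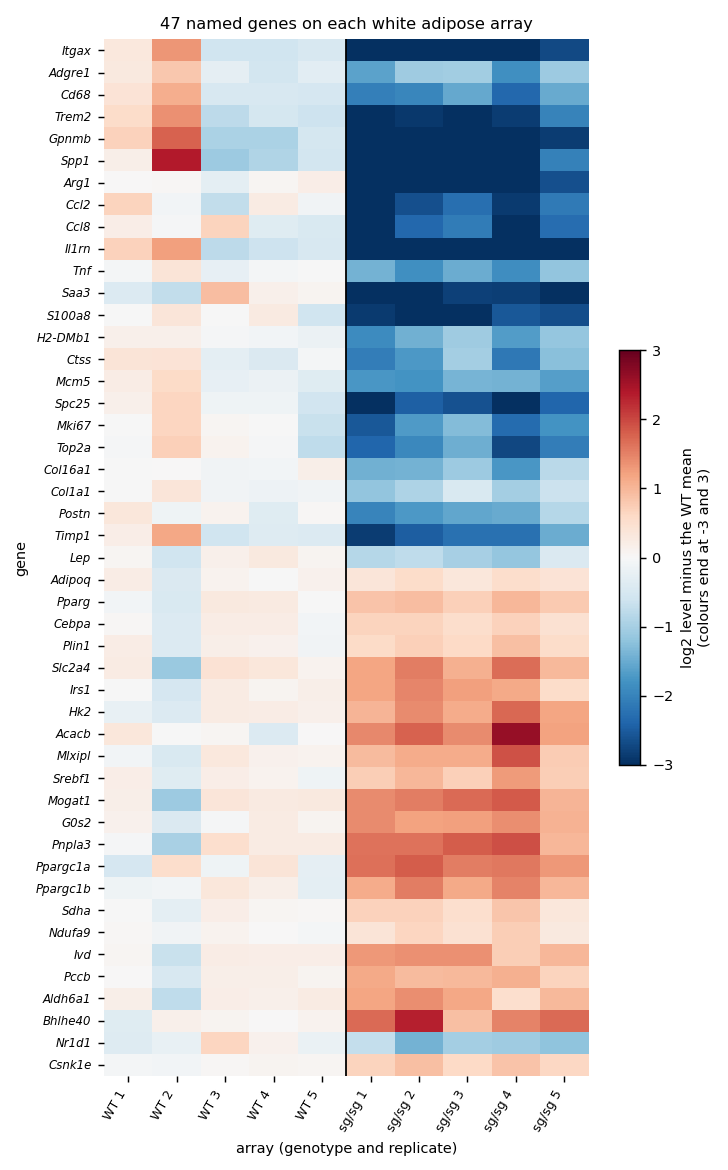
Rows are 47 genes named in the text and columns the 10 arrays; colours give the log2 level minus the WT mean, from -3 (blue) to 3 (red). WT replicate 2 is redder than other WT arrays for Trem2 and Spp1 and bluer for Slc2a4 and Ivd, and in every row but Lep the genotypes do not overlap.

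Core clock genes were compared at a time of day that the labels do not give. Of 15 clock activators and repressors 3 were higher and 1 lower (3 and 1 with normexp), and the 26.7% past the threshold was near the 23.8% of all genes. Arntl, or BMAL1, the best-known clock target of RORα, differed by 0.25 (SE 0.32, adjusted p = 0.623), and Clock differed by 0.20 (SE 0.14, adjusted p = 0.341). A second Clock probe gave 0.55 (SE 0.14) and passed. Nr1d1, encoding REV-ERBα, was at 0.041, 0.20, 1.07, 0.55 and 0.23 (WT) against -0.31, -1.01, -0.60, -0.65 and -0.79 (sg/sg). No sg/sg array reached WT, and WT replicate 3 was the highest. The difference was -1.09 (SE 0.20, adjusted p = 0.00468). Of the remaining genes, named after their values were seen, Nr1d2, Npas2, Per1, Per3, Cry1 and Cry2 differed by -0.66, 0.21, 0.58, 0.38, 0.07 and 0.34, and none passed. Per2 differed by 0.88 (SE 0.27, adjusted p = 0.0378) and Csnk1e, a kinase of PER proteins, by 0.73 (SE 0.092, adjusted p = 0.00101). WT replicate 3 had the highest Dbp and Nr1d1 and the lowest Arntl of the WT arrays, at 4.66, 1.07 and -1.70.

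Of 6 clock output factors 3 were higher and none lower, with 1 higher under normexp and 1 without WT replicates 1 or 5 or sg/sg replicate 2. Bhlhe40, or DEC1, a repressor at E-boxes, was at 0.02, 0.53, 0.46, 0.38 and 0.49 (WT) against 2.07, 2.70, 1.27, 1.86 and 2.07 (sg/sg), with no overlap and sg/sg replicate 2 the highest, a difference of 1.62 (SE 0.23, adjusted p = 0.0015). Bhlhe41 and Nfil3 differed by 0.93 (SE 0.29, adjusted p = 0.0409) and 0.75 (SE 0.23, adjusted p = 0.0397), while the activators Dbp, Tef and Hlf differed by -0.77 (SE 0.38), 0.39 (SE 0.21) and 0.53 (SE 0.20) and did not pass. Of 33 measured nuclear receptor genes 10 were higher and 4 lower (3 and 1 with normexp, 6 and 2 without WT replicate 1, and 2 lower without WT replicate 5). Nr2f2, or COUP-TFII, differed by 0.99 (SE 0.14, adjusted p = 0.00156) and the glucocorticoid receptor Nr3c1 by 0.52 (SE 0.11, adjusted p = 0.00763).

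In cholesterol synthesis and uptake 2 of 22 genes were higher (9.09%, against 14.4% of all genes) and none lower. Among them was the squalene synthase Fdft1 at 0.87 (SE 0.12) on its brightest probe. A second Fdft1 probe gave 0.08 (SE 0.35) and did not pass. The brightest probe of Hmgcs1, an early enzyme of the pathway, differed by -0.15 (SE 0.23) and did not pass, while another of its probes was higher, at 0.77 (SE 0.15). The remaining Hmgcs1 probe gave -0.56 (SE 0.22) and did not pass. With normexp 2 genes of the list were higher and 1 lower, and without sg/sg replicate 4, 3 were higher and 8 lower. Of 15 sterol efflux and LXR genes 3 were higher and 5 lower (2 and 2 with normexp). Soat1, which esterifies cholesterol in macrophages, differed by -1.91 (SE 0.27, adjusted p = 0.00139), though a second probe was at 0.47 (SE 0.22), and Osbpl3, Abcg1 and, named after its value was seen, Pltp differed by -1.19, -0.95 and -1.23. The sterol transporter Abcg5 differed by 1.63 (SE 0.32, adjusted p = 0.00561) and Abca1 by -0.022 (SE 0.087, adjusted p = 0.886). In the IGF axis 4 of 16 genes were higher and 1 lower (1 and 2 with normexp, and 2 lower without sg/sg replicate 4). Igfbp2, Igfbp6 and the receptor Igf1r differed by 1.42, 0.79 and 0.50, Igfals, which stabilises circulating IGF1, by -1.33 (SE 0.26, adjusted p = 0.00551), and Igf1 by -0.36 (SE 0.17, adjusted p = 0.165). Another Igf1 probe was lower, at -0.58 (SE 0.14), and the remaining probe, at 0.42 (SE 0.25), did not pass. In steroid and sulfate metabolism 4 of 23 genes were higher and 3 lower (2 and 2 with normexp), with Hsd11b1, which regenerates active glucocorticoid, at 1.07 (SE 0.21, adjusted p = 0.00535), Sult1a1 at 1.18 (SE 0.18, adjusted p = 0.00212) and the oestrogen sulfotransferase Sult1e1 at 0.23 (SE 0.31, adjusted p = 0.648). Akr1b7, described below, was the lowest of the list at -7.04, with no sg/sg array well above background.

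The 15 largest decreases included several genes outside the lists, beside Akr1b7 of the steroid list and Pvalb of the skeletal muscle list. Tph2, a tryptophan hydroxylase of serotonin synthesis in neurons (probe at chr10:114585279-114585338, mm7), was at 1.13, 2.14, 0.64, 0.89 and 0.41 (WT) against -5.25, -5.24, -5.40, -4.01 and -4.30 (sg/sg). The groups were far apart, with WT replicate 2 the highest, and the difference of -5.88 (SE 0.37, adjusted p = 8.78e-05), or 58.9-fold, had the same adjusted p as Rora. Akr1b7, an aldo-keto reductase of adipose stroma and steroid-making tissue, was at -5.77, -2.60, -1.43, -0.15 and 2.54 (WT) against -7.48, -7.54, -9.74, -8.55 and -9.30 (sg/sg). WT arrays were widely spread and all above sg/sg, and no sg/sg array was well above background, so the change of -7.04 is given as at least 78.8-fold lower (adjusted p = 0.00428). Ldhc, the lactate dehydrogenase of testis, was also not well above background on any sg/sg array and at least 28.0-fold lower (adjusted p = 0.00718), with WT values between -7.57 and 1.92. With normexp the log2 differences of Akr1b7 and Ldhc were -2.45 and -1.59 and did not pass. Among WT arrays the male tract marker sum described below was, like Akr1b7, lowest on replicate 1 (0.0874) and highest on replicate 5 (1.08). The order of the WT arrays between these differed. A part of carried tissue in the Akr1b7 difference was not tested.

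Rgs1, a regulator of chemokine receptor signals in leukocytes, differed by -4.87 (SE 0.57, adjusted p = 0.00078), the choline transporter Slc5a7 by -4.52 (SE 0.73, adjusted p = 0.00241), the calcium-binding protein Pvalb by -4.66 (SE 0.46, adjusted p = 0.000437), the ubiquitin ligase Rnf128 by -4.42 (SE 0.76, adjusted p = 0.00315) and the secreted phospholipase Pla2g5 by -4.28 (SE 0.31, adjusted p = 0.000161). Vsig8, Prss46 and 9130204L05Rik differed by -5.17, -5.10 and -4.33, measured above background on 3 of 5, 1 of 5 and 1 of 5 arrays of sg/sg mice, and by -1.63, -0.30 and -0.013 with normexp.

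The largest increases included metabolic enzymes. Acsm3, a medium-chain acyl-CoA synthetase of mitochondria (probe at chr7:115706790-115706849, mm7), was at -3.02, -5.00, -3.08, -2.37 and -2.45 (WT) against 1.68, 0.64, 1.57, -0.25 and 0.048 (sg/sg). The genotypes did not overlap, and sg/sg replicates 4 and 5 were lower than the rest of sg/sg. The difference was 3.92 (SE 0.55, adjusted p = 0.00143), or 15.1-fold. Pon1, the paraoxonase known from HDL particles, differed by 2.98 (SE 0.49, adjusted p = 0.00276), and Cyp1a1, the oxidase induced through the aryl hydrocarbon receptor, by 3.25 (SE 0.56, adjusted p = 0.00331), with sg/sg replicate 2 the highest. The antagonist of Wnt and BMP signals Sostdc1 differed by 2.50 (SE 0.48), the membrane protein Unc93a by 2.48 (SE 0.51) and the adhesion molecule Cntn6 by 3.27 (SE 0.76). D830007B15Rik, LOC624219, Accsl, BC013529, Ttc36 and Baiap2l2 rose by 2.41 to 4.35. D830007B15Rik, Cyp1a1 and Cntn6 were not well above background in 2 or 3 of the WT arrays.

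Markers of other tissues that a fat sample can hold were also compared. Mesothelial genes, which mark the lining of abdominal organs and fat pads, were higher: 8 of 15 measured markers rose and none fell, at a median of 1.04, with 5 without WT replicates 3 or 4 or any of sg/sg replicates 1, 2, 3 or 5, 5 with median scaling and 2 with normexp. Wt1, a mesothelial transcription factor, differed by 1.04 (SE 0.24, adjusted p = 0.0125), Upk3b by 1.23 (SE 0.37, adjusted p = 0.0364), Rspo1 by 1.10 (SE 0.21, adjusted p = 0.00574), Nkain4 by 1.41 (SE 0.28, adjusted p = 0.00636), Krt19 by 1.22 (SE 0.32, adjusted p = 0.0216) and Cldn15 by 0.39 (SE 0.10, adjusted p = 0.0198), while Msln, or mesothelin, differed by 1.09 (SE 0.41, adjusted p = 0.0789). Their sum was 52.4 to 107 in WT and 99.7 to 135 in sg/sg mice, so WT arrays reached the sg/sg range. Smooth muscle genes had 4 of 13 higher and 1 lower (1 and 1 with normexp, and 2 higher without WT replicates 1 or 5 or any of sg/sg replicates 1, 3 or 5), with Tagln at 0.73 (SE 0.10), Lmod1 at 1.20 (SE 0.17), Cnn1 at 1.65 (SE 0.45), Myh11 at 0.61 (SE 0.17) and Acta2 at 0.06 (SE 0.16, adjusted p = 0.821). Of 20 endothelial markers 2 were higher (10%, against 14.4% of all genes), and none with normexp. The count was 1 without WT replicates 1, 2 or 5 or sg/sg replicate 2. The 2 genes were Vwf at 0.48 (SE 0.12) and the VEGF receptor Flt1 at 0.54 (SE 0.15), while Pecam1 and Cdh5 differed by -0.069 and 0.068. Other Flt1 probes gave 0.55, 0.36 and 0.42 and did not pass. In lymphatic endothelium 3 of 6 measured markers were higher, among them Prox1 and Mmrn1 at 1.34 (SE 0.38, adjusted p = 0.0297) and 1.74 (SE 0.52, adjusted p = 0.0366), and none was with normexp. The other Prox1 probe gave 0.14 (SE 0.21) and did not pass. On the probe used, and for Mmrn1, the levels overlapped, with WT replicates 2 and 4 inside the sg/sg range. None of the 6 passed without WT replicates 1 or 5 or any of sg/sg replicates 1, 3 or 5. In hypoxia and angiogenesis 5 of 19 genes were higher and none lower (1 and 1 with normexp). The 26.3% past the threshold was near the 23.8% of all genes. Vegfa, Vegfb, Angpt1, Egln3 and Hgf differed by 0.87, 0.87, 1.37, 1.17 and 0.60. Other Vegfa probes gave 0.59 (SE 0.22) and 0.64 (SE 0.21) and did not pass. Other Hgf probes gave -0.35 (SE 0.21) and -0.31 (SE 0.22) and did not pass. The mean of the Hgf probes was at -0.016, with the sign turned.

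The male reproductive tract touches the epididymal fat pad, and its markers varied from array to array. Of 8 measured markers 1 was higher, Svs5 at 1.71 (SE 0.44, adjusted p = 0.0195), and none lower, and none passed with normexp. Crisp1, a sperm-coating protein of the epididymis, was at -10.20, -2.34, -1.03, -3.62 and -0.47 (WT) against -7.06, -10.04, -10.33, -6.19 and -6.67 (sg/sg). WT replicate 1 was as low as the lowest sg/sg arrays and WT replicates 3 and 5 were the highest, and the difference was -4.53 (SE 1.75, adjusted p = 0.0877). Adam7 and Spink8 differed by -1.17 (SE 1.27, adjusted p = 0.551) and -2.75 (SE 1.48, adjusted p = 0.209). The defining markers Lcn5, Lcn8, Svs2 and Svs4 were not well above background, and the sum was 0.0874 to 1.08 in WT and 0.156 to 0.352 in sg/sg mice. Skeletal muscle markers had 2 of 12 higher and 2 lower (1 and 0 with normexp), and 33.3% passed the threshold against 23.8% of all genes. Acta1 differed by 1.44 (SE 0.54, adjusted p = 0.0789), Ckm by 0.13 (SE 0.35, adjusted p = 0.828) and Tnni2 by -0.86 (SE 0.14). Pvalb, given above among the largest decreases, is on this list too, at -4.66. The sum of the muscle markers was 8.14 to 14.1 in WT and 18.3 to 22.1 in sg/sg mice, without overlap. Albumin, Alb, a liver gene, differed by 1.39 (SE 0.91, adjusted p = 0.304). The sum of lymph node stroma and mammary markers was 0.482 to 1.08 in WT and 0.77 to 11.2 in sg/sg mice, with sg/sg replicate 3 far above the rest. On that array Cxcl13, a chemokine of B cell follicles, was at 3.45, and the genotype difference was 2.20 (SE 0.91, adjusted p = 0.107). The same array had the highest neutrophil sum, where the other sg/sg arrays were below all WT arrays (2.40 to 2.67 in WT and 1.28 to 6.16 in sg/sg mice). The part of these tissues in the differences described here was not tested.

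A letter match to the core of a ROR site was looked for in the promoters, since these mice lack intact RORα. The motif TAGGTCA was searched on both strands of the 250 bases before each gene's start in RefSeq promoters of GRCm38.p6. It was found in 2.23% of 32851 promoters, in 46 of 1400 genes lower in sg/sg mice (3.29%), in 35 of 1606 higher genes (2.18%) and in 201 of 9636 genes not past the threshold (2.09%). A match is a description of letters, not a site that was shown to bind. The windows below are those of genes described here, with the motif or its reverse complement in capitals, written 5′ to 3′ on the strand of the gene:
Nfil3, chr13:52981040-52981100, minus strand: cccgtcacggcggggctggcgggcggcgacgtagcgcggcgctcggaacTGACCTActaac
Ccl3, chr11:83649532-83649592, minus strand: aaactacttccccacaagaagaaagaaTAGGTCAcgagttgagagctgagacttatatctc
Retnlg, chr16:48872441-48872501, plus strand: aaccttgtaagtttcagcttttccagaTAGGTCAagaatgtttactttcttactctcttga
Upk3b, chr5:136038313-136038373, plus strand: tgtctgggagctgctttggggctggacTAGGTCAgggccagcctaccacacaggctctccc
Vegfb, chr19:6987692-6987752, minus strand: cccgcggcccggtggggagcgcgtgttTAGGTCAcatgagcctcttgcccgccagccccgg

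Among these genes, Nfil3, Upk3b and Vegfb were higher and Ccl3 and Retnlg lower in sg/sg mice, so the same letters stood before genes that moved either way. The motif lay 12 bases before the gene's start for Nfil3, 74 for Vegfb, 140 for Retnlg, 156 for Upk3b and 187 for Ccl3.

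The remaining lists are given by their counts, beside 14.4% of all genes higher and 9.44% lower. Of 17 integrins and adhesion genes 2 were higher and 7 lower (1 and 5 with normexp). Of 18 genes of apoptosis and p53 2 were higher and 7 lower (2 and 4 with normexp). Of 22 genes of the unfolded protein response 1 was higher and 3 lower (0 and 4 with normexp). The number lower was 1 without WT replicate 1 or any of sg/sg replicates 1 to 3, and 7, with 3 higher, without sg/sg replicate 4. Of 18 genes of lipid mediators 1 was higher and 4 lower (1 and 2 with normexp). In nucleotide and one-carbon metabolism 3 of 20 genes were lower and none higher (2 lower with normexp, and 6 without sg/sg replicate 4). Of 13 channels and transporters of adipocytes 3 were higher and none lower (2 higher with normexp). Counts of 1 or 2 genes in the lists described here often moved by 1 or 2 genes when single arrays were left out. Ribosomal protein genes had 0 of 22 past the threshold by limma, also with normexp, and a median of 0.10, near the 0.09 of all genes.

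**Figure D5:**
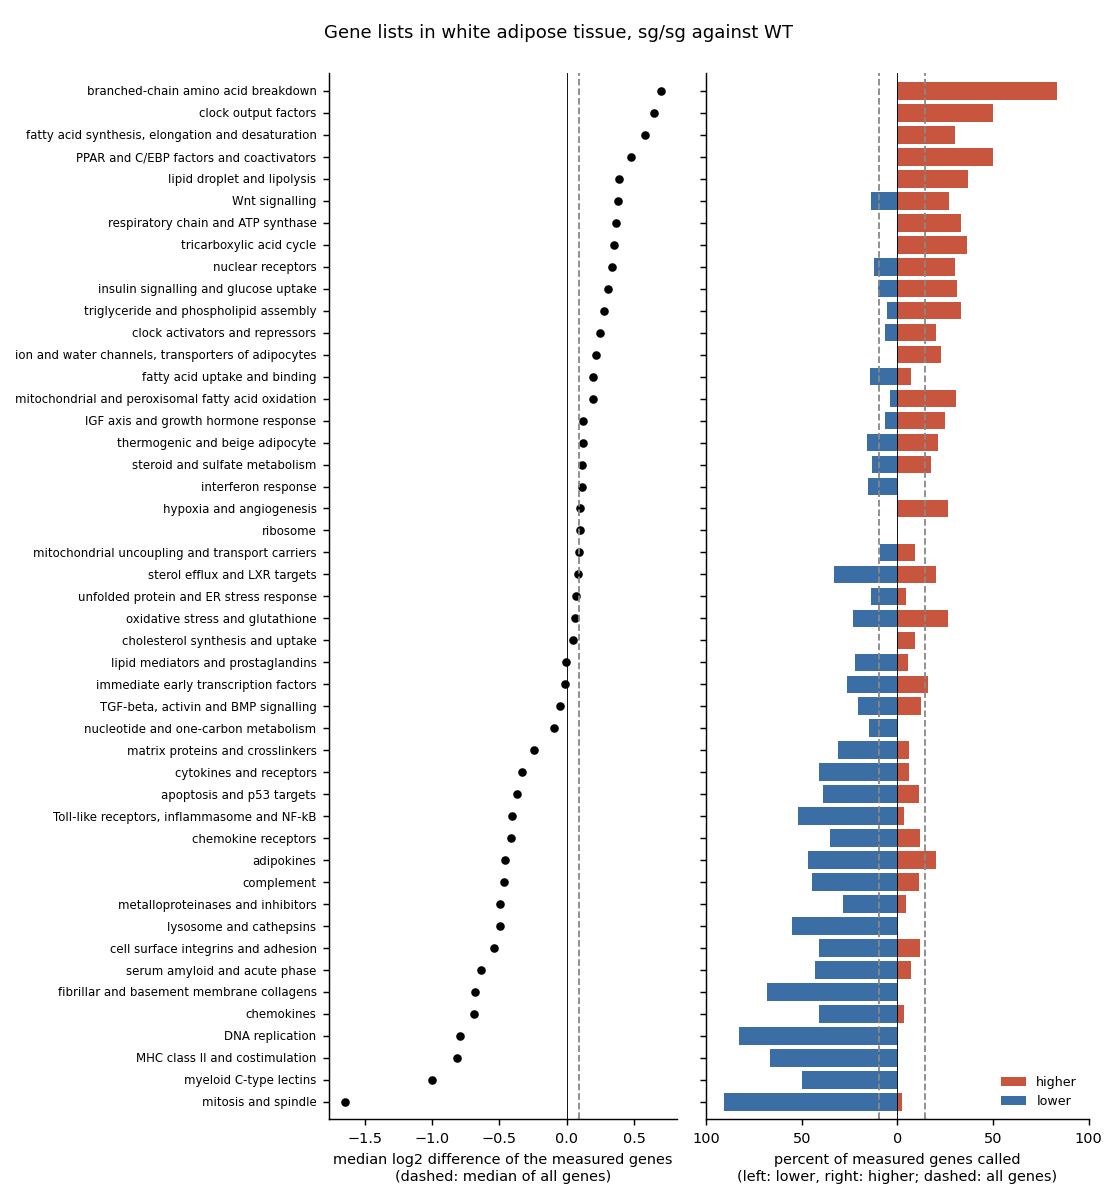
Each row is a gene list, ordered by the median log2 difference of its measured genes (left), and bars give the percent of measured genes lower (blue, to the left) or higher (red, to the right) in sg/sg mice. Dashed lines mark all genes (median 0.09, 14.4% higher, 9.44% lower); branched-chain amino acid breakdown is at the top with 0.70 and mitosis and spindle at the bottom with -1.65.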

How the data were processed

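RNA of white adipose tissue was hybridised to 1-colour (Cy3) Agilent arrays, 10 of them used here. Per the file headers, the deposited intensity values are processed signals of Agilent Feature Extraction (version 9.5 per the submitters' processing notes), background-corrected by that software, with probe positions in mm7. The authors' value table held the same intensities.

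From these, log2 intensity minus the array's 75th percentile over non-control spots was computed, control spots and outlier spots were left out and spots of a probe averaged. Probes well above background on at least 4 of 10 arrays, with at most 2 missing values, were kept, and the brightest probe stood for a gene. Of 41174 probes 23082 (56.1%) were named by RefSeq accession (GRCm38.p6), 11630 by the gene name in the files and 6462 not. Genotypes were compared with limma 3.58.1 (R 4.3.3; lmFit, eBayes, two-sided, Benjamini-Hochberg over 22347 genes, threshold 0.05). SE is the standard error of a log2 difference and n is 5 a genotype throughout. In simulated data of 22347 genes, 64% of 100 genes changed by 1 log2 unit and 88% of 100 changed by 2 were called, with 11 false calls. Only these genes were changed, and noise was drawn independently for each gene and array. In the data 5326 genes passed, so these rates and the number of false calls do not carry over to them.

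A gene well above background on no array of a genotype is given as "at least" a fold, against the higher of its own signal and the dimmest signal well above background on each array. Normexp used an offset of 50. Alternatives were scaling, background, filter, probe rule, slide, replicate block and leaving out arrays. Members and gene lists were chosen with earlier results of these data known. Named genes are Rora, the 15 largest non-overlapping increases and decreases with a symbol, the 10 smallest p with slide as a block, and of each list the 4 smallest p and the first 2 defining members, with defining markers of other cell types; 12 further genes were chosen after their values were seen. Values of some genes so chosen are left out. Probes of near-identical genes (Saa1, Clec4a2 and Clec4a3, H2-DMb1 and H2-DMb2) may read their relatives. Liver arrays were not used here.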

Additional observations from a re-analysis of the deposited data

Results flagged for a closer look

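A single array far from the other 4 of its genotype was found in 52 of the 624 groups of 5 tested for the named genes (8.33%), where chance gives about 1 in 20. The measure is the gap between the extreme array and its nearest neighbour as a share of the whole range of the group, and values above 0.71 are listed. WT replicate 2 held 20 of the cases, 4 high and 16 low, and sg/sg replicate 4 held 14, 7 high and 7 low.

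WT replicate 1 was lowest for Nr2f2 (0.722), and highest for Npc2 (0.815). WT replicate 2 was lowest for Acsm3 (0.733), Accsl (0.743), Ccr2 (0.865), Cfb (0.850), Sfrp5 (0.875), Lep (0.727), Slc2a4 (0.788), Cfd (0.887), Retn (0.830), Rbp4 (0.734), Mogat1 (0.879), Pccb (0.744), Ivd (0.809), Bckdha (0.809), Aldh6a1 (0.907) and Vegfb (0.857), and highest for Tlr1 (0.744), Col1a1 (0.712), Grem1 (0.730) and Sult1e1 (0.761). WT replicate 3 was lowest for Cidea (0.786). WT replicate 4 was lowest for Fbn2 (0.723). WT replicate 5 was lowest for Ndufs7 (0.711) and Igf1 (0.742). The low cases of WT replicate 2 included the adipocyte genes Slc2a4, Cfd, Retn and Lep and the branched-chain amino acid genes Ivd, Bckdha, Pccb and Aldh6a1. For Slc2a4 its log2 level was 2.87 against 4.08 to 4.41 on the other WT arrays, and for Ivd 2.44 against 3.17 to 3.34.

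sg/sg replicate 1 was lowest for Ptx3 (0.799), and highest for Fbn2 (0.763), Insr (0.821), Npas2 (0.844) and Hsd11b1 (0.888). sg/sg replicate 2 was highest for Cyp1a1 (0.785) and Hlf (0.741). sg/sg replicate 3 was highest for Cxcl13 (0.727). sg/sg replicate 4 was lowest for Ttc36 (0.718), Retnlg (0.800), Zbtb46 (0.752), C4b (0.789), Eci1 (0.812), Nr1d2 (0.820) and Acta1 (0.765), and highest for Acaca (0.724), Gpat3 (0.735), Pdhb (0.774), Ndufs7 (0.763), Clock (0.889), Igf1 (0.863) and Flt1 (0.719). sg/sg replicate 5 was highest for Atp6v0d2 (0.822), Arg1 (0.853), Gpnmb (0.743) and Abcg1 (0.718). For Acaca, an acetyl-CoA carboxylase, sg/sg replicate 4 was at 4.12 against 1.43 to 2.17 on the other sg/sg arrays. For Cxcl13 sg/sg replicate 3 was at 3.45 against -2.27 to -0.71.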

How the results depend on the processing

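Of the 245 named genes that passed, 115 kept the call in each of 21 alternatives and 130 lost it in at least 1; the 3 fits within a slide, with 3 or 4 arrays, are counted apart because no gene passed in them. Normexp background correction gave 1521 genes past the threshold, 812 higher, 709 lower and 637 at least 2-fold, and 119 of these genes lost their call. For 9 of them the sign turned: Csf3r (0.016), Ltf (0.60), Clec9a (0.38), Flt3 (0.57), Foxp3 (0.92), Il1b (0.14), Col12a1 (0.36), Fbn2 (0.47) and Tnfrsf9 (0.79), against a median of 0.408 over all genes; the cause was not tested. The mean of a gene's probes turned Lyz2 (-0.70), Xcr1 (-0.36) and Hgf (-0.016). Within slides 1, 2 and 3 limma called 0 genes in either direction and 0 at least 2-fold, with 3669, 3602 and 2815 at an unadjusted p under 0.05. A replicate block was also fitted, although the labels do not say that the numbers pair the mice. Deviations from the genotype mean correlated at -0.16 to 0.102 between same-numbered arrays, which does not settle a pairing. The replicate block gave 3433 genes, 1914 higher, 1519 lower and 1473 at least 2-fold. Leaving out each array in turn gave 3931 to 6977 genes, 2266 to 4200 higher, 1665 to 2777 lower and 1468 to 1726 at least 2-fold. Median scaling, quantile normalization, the filter on dim probes, slide as a block, a fit over 20 arrays and a trended robust fit kept these 4 counts within 1.5 times, and the deposited value table gave the same values as the scanner files. Of 128 named genes with several probes, 49 had a probe that differed in call or sign, 15 in sign. Signal over background limits what can be read from dim genes, and 5 arrays a genotype limit the precision.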
